A study of Mus musculus with 6 samples.

Results

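Titin, the M-band proteins and the factors that help to build the sarcomere were followed as 8 genes, Ttn, Myom1, Myom2, Mybpc3, Lmod2, Smyd1, Klhl41 and Txlnb, out of 18193 genes measured in isolated mouse heart cells. The genes were picked for their roles with earlier results of these arrays known. Each gene was read from a probe set annotated to no other gene; where there were several, the mean over the 6 arrays decided and the highest won, so those means are given only as a description. The means ran between 7.14 for Klhl41 and 12.30 for Ttn on the log2 scale of the deposited values. All 8 genes were tested, since no filter on low values was applied.

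Total RNA was hybridised to 6 one-colour arrays, 2 in each of 3 groups, all from C57BL/6J mice. The adult cardiomyocytes came from males at 8 weeks of age and were released by Langendorf perfusion. The neonatal cardiomyocytes and the neonatal cardiac fibroblasts came from hearts of both sexes at postnatal day 1 and were separated on Percoll. No genotype or drug differed between the groups; age, sex and isolation changed together between the adult and the neonatal cells and cannot be told apart. The labels describe plating of dissociated cells and a check with a mitochondrial dye that no cardiomyocytes remained. Whether replicate arrays stem from separate litters or preparations is not stated, so it is not known whether the p-values rest on a spread between animals. Replicates 1 and 2 lay far apart for some heart genes. In adult cardiomyocytes Myl7 measured 8.01 and 12.98 and Nppa 11.11 and 13.84, against 14.48 and 14.49 for Myh6. In neonatal cardiomyocytes Myh7 measured 14.41 and 9.70. The cause was not tested.

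The sarcomere is the contractile unit of striated muscle. Titin spans it from the Z-disc to the M-band, where myomesins crosslink the myosin thick filaments, and cardiac myosin-binding protein C sits along those filaments and tunes crossbridge formation. Leiomodins act on the pointed ends of thin filaments, and muscle chaperones, methyltransferases and kelch proteins assist the folding, placing and turnover of sarcomere proteins. In the heart these proteins belong to cardiomyocytes and are not made in quantity by fibroblasts.

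Stretches of 200 bases before the annotated start are shown for the 4 members in which a MEF2 or a CArG motif was found there, since these motifs are bound by the muscle regulators MEF2 and SRF and the members varied together across arrays. The sequences are from RefSeq (build GRCm38.p6). The set of promoters used here held 6 of the 8 members, without Myom2 and Txlnb. They cover chr2:76982548-76982747 on the minus strand for Ttn, and chr17:71019357-71019556, chr2:91117944-91118143 and chr2:69669920-69670119 on the plus strand for Myom1, Mybpc3 and Klhl41. Capitals mark MEF2 motifs, the CArG motif and the run CTATATTTA, each 5′ to 3′ on the gene's strand.
Ttn: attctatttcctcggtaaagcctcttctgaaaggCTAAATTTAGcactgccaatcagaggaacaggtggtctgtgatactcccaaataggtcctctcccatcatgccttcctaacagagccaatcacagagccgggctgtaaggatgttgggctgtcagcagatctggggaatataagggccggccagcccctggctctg
Myom1: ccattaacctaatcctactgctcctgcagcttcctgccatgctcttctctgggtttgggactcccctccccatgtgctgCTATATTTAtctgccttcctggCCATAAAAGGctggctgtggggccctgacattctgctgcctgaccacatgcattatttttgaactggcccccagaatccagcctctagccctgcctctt
Mybpc3: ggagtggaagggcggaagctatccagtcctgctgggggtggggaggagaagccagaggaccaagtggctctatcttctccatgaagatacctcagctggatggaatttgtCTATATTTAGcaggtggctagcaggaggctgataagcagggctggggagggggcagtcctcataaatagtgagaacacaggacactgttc
Klhl41: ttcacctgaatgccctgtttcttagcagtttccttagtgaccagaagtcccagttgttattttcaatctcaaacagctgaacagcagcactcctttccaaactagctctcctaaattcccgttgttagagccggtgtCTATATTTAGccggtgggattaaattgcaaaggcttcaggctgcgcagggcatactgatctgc
Over the 250 bases before the start, searched on both strands, the MEF2 motif lay in 3 of the 6 members, Ttn, Mybpc3 and Klhl41, and in 2.92% of the 32851 promoters of the table. The CArG motif lay in Myom1 and in 1.47% of promoters. The run CTATATTTA, chosen after these sequences had been read and overlapping the MEF2 motif in Mybpc3 and Klhl41, lay in Myom1, Mybpc3 and Klhl41 and in 0.186% of promoters. Mybpc3 and Klhl41 carried the same MEF2 letters, first base at positions -90 and -63 from the start. TATAAA lay in Smyd1 on the opposite strand (12.4% of promoters), and CATTCC in 0 of the 6 (12.6%). These matches describe letters and not sites.

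Values are log2 RMA values, and adult-minus-neonatal and cardiomyocyte-minus-fibroblast differences are differences of group means with the standard error (SE) of limma, a linear model fitted to all genes. The 3 groups share a single estimate of the spread for each gene. A gap between the fibroblast arrays therefore also widens the SE, interval and p-value of adult minus neonatal. P-values were adjusted over all 18193 genes (Benjamini-Hochberg) and called at 0.05. Groups followed the source name. In each neonatal group, the title of replicate 1 gives the opposite cell type. The median of 8 cardiomyocyte markers outside the member list was 13.65 on the one grouped with the cardiomyocytes and 6.17 on the one grouped with the fibroblasts. That of 10 fibroblast markers was 10.28 and 12.58 in the same order.

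The cell type labels were compared with marker genes. The median of 8 cardiomyocyte markers, all outside the member list, was 13.11 and 13.65 on the adult and 13.65 and 12.99 on the neonatal cardiomyocyte arrays, against 6.17 and 9.43 on the fibroblast arrays. The 10 fibroblast markers had medians of 7.77 and 9.59 on the adult and 10.28 and 9.43 on the neonatal cardiomyocyte arrays, and of 12.58 and 11.86 on the fibroblast arrays. Replicate 2 of the fibroblasts thus carried cardiomyocyte transcripts above the level of replicate 1. The fibroblast arrays also had the higher leukocyte medians (9 markers), at 11.96 and 9.55, against between 5.39 and 8.77 on the 4 cardiomyocyte arrays. The 9 markers of fast skeletal muscle, another source of several of these transcripts, lay between 3.46 and 6.66 on all arrays. In RNA from whole preparations, fewer cells of a type and less RNA per cell cannot be told apart.

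**Figure D1:**
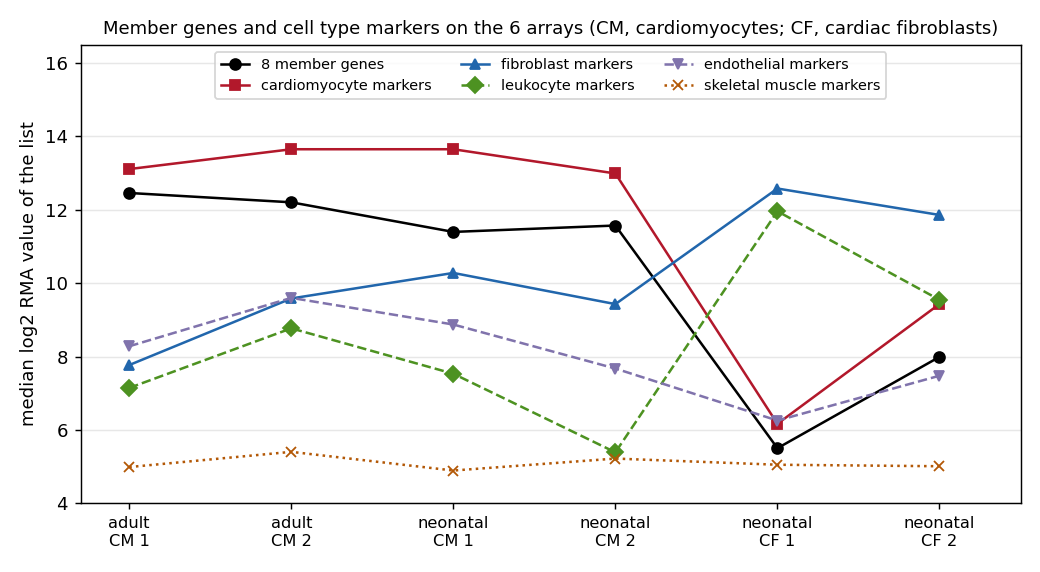
Median log2 RMA value of the 8 member genes and of 5 marker lists on each of the 6 arrays (CM, cardiomyocytes; CF, cardiac fibroblasts; numbers are replicates). The members' median was 12.46 and 12.20 on the adult and 11.40 and 11.57 on the neonatal cardiomyocyte arrays, and 5.51 and 7.99 on the fibroblast arrays.

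All 8 genes had higher values on every cardiomyocyte array than on either fibroblast array. Set against both fibroblast arrays, 22.3% of all genes lay above on both neonatal and 37.8% on both adult cardiomyocyte arrays. Every group mean of the 8 ran from adult cardiomyocytes down through neonatal cardiomyocytes to fibroblasts. The upper step was as small as 0.16 ± 0.67 (SE, Mybpc3) and turned for Ttn and Mybpc3 without neonatal cardiomyocyte replicate 2. The share of all genes in that order was not counted. Adult and neonatal cardiomyocytes, the upper neighbours in that order, did not differ past the threshold for any of the 8.

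Titin, the giant spring of the sarcomere, measured 14.10 and 13.91 in adult cardiomyocytes, 14.12 and 13.37 in neonatal cardiomyocytes, and 7.57 and 10.71 in fibroblasts. The adult and neonatal cardiomyocyte arrays overlapped, and neonatal replicate 1 held the highest value. The difference was 0.26 ± 1.02 (SE, n = 2 arrays a group), with a 95% interval of -2.33 to 2.84 (limma adjusted p = 0.895). Neonatal cardiomyocytes exceeded fibroblasts by 4.61 ± 1.02, short of the threshold at limma adjusted p = 0.112.

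Myom1, myomesin 1, the M-band crosslinker present in all striated muscle, measured 12.32 and 12.28 in adult cardiomyocytes, 12.23 and 11.88 in neonatal cardiomyocytes, and 6.03 and 9.36 in fibroblasts. The 4 cardiomyocyte values lay within a narrow range and the fibroblast arrays far apart. The standard deviation was 0.02 in adult cardiomyocytes, 0.25 in neonatal cardiomyocytes and 2.35 in fibroblasts. All 3 enter the shared spread behind both SEs below. Adult minus neonatal was 0.25 ± 1.05 (limma adjusted p = 0.901), and neonatal cardiomyocyte minus fibroblast 4.36 ± 1.05 (limma adjusted p = 0.135).

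Myom2, its paralog of adult heart and fast muscle, measured 13.51 and 13.53 in adult cardiomyocytes, 13.02 and 12.29 in neonatal cardiomyocytes, and 5.98 and 8.72 in fibroblasts. Both adult arrays lay above both neonatal cardiomyocyte arrays, and those above both fibroblast arrays. The adult-minus-neonatal difference of 0.87 ± 0.89 did not pass (95% interval -1.41 to 3.14, limma adjusted p = 0.583), nor did the neonatal difference between cell types of 5.30 ± 0.89 (limma adjusted p = 0.0728). Taken per array, Myom2 minus Myom1 was higher by 0.62 in adult than in neonatal cardiomyocytes. The exact two-sided permutation test over these 4 arrays gave p = 0.333, the smallest it can give.

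Mybpc3, cardiac myosin-binding protein C, whose mutations cause hypertrophic cardiomyopathy in humans, measured 13.18 and 13.12 in adult cardiomyocytes, 13.25 and 12.73 in neonatal cardiomyocytes, and 7.54 and 9.57 in fibroblasts. As for Ttn, neonatal replicate 1 held the highest value and the adult and neonatal arrays overlapped. Adult minus neonatal was 0.16 ± 0.67, the smallest of the 8 (95% interval -1.55 to 1.86, limma adjusted p = 0.902). Neonatal cardiomyocyte minus fibroblast was 4.44 ± 0.67 (limma adjusted p = 0.0639). Without neonatal cardiomyocyte replicate 2, adult minus neonatal turned to -0.12 for Ttn and -0.10 for Mybpc3.

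**Figure D2:**
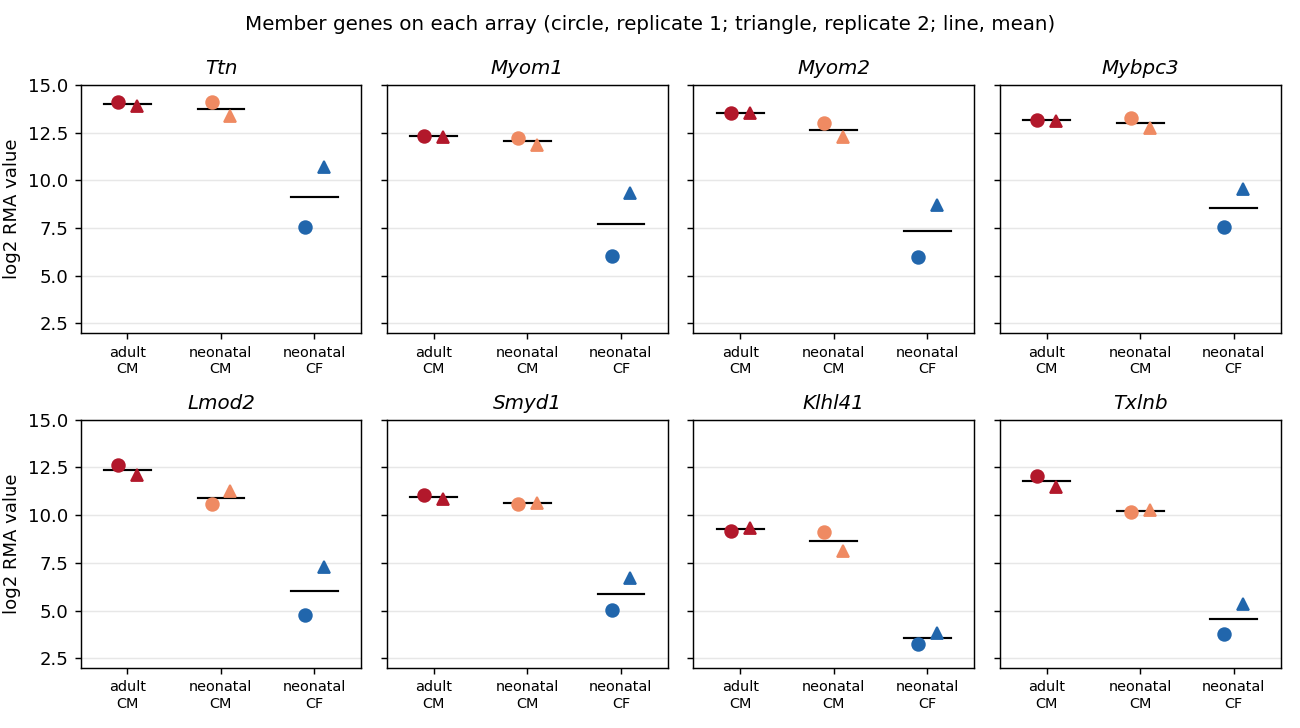
Log2 RMA value of each member gene (vertical axis) on the 2 arrays of each group; circles are replicate 1, triangles replicate 2 and lines the group mean (CM, cardiomyocytes; CF, cardiac fibroblasts). Fibroblast replicate 2 lies above replicate 1 in all 8 panels (replicate 1 minus replicate 2 from -3.32 for Myom1 to -0.61 for Klhl41), while Lmod2 and Txlnb show the widest gaps between adult and neonatal cardiomyocytes.

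Lmod2, the leiomodin of heart muscle that lengthens thin filaments, measured 12.60 and 12.12 in adult cardiomyocytes, 10.56 and 11.27 in neonatal cardiomyocytes, and 4.74 and 7.27 in fibroblasts. The 3 groups did not overlap. Adult minus neonatal was 1.45 ± 0.84 (95% interval -0.69 to 3.59, limma adjusted p = 0.356), and neonatal cardiomyocyte minus fibroblast 4.91 ± 0.84 (limma adjusted p = 0.0755).

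Txlnb, a muscle-enriched taxilin, measured 12.07 and 11.48 in adult cardiomyocytes, 10.15 and 10.27 in neonatal cardiomyocytes, and 3.76 and 5.35 in fibroblasts. Its adult arrays lay over 1 log2 unit above the neonatal ones. Adult minus neonatal was 1.56 ± 0.55, with a 95% interval of 0.16 to 2.96; its unadjusted p of 0.0349 became 0.187 after adjustment in limma.

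Smyd1, a muscle methyltransferase required for heart development in mice and for myofibril assembly in zebrafish, measured 11.03 and 10.85 in adult cardiomyocytes, 10.57 and 10.65 in neonatal cardiomyocytes, and 5.03 and 6.69 in fibroblasts. Its neonatal cardiomyocyte arrays were the closest pair among the 8 genes in that group. Adult minus neonatal was 0.33 ± 0.54 (95% interval -1.05 to 1.71, limma adjusted p = 0.734).

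Klhl41, a kelch protein that stabilises sarcomere proteins, measured 9.16 and 9.34 in adult cardiomyocytes, 9.13 and 8.14 in neonatal cardiomyocytes, and 3.23 and 3.84 in fibroblasts. Its fibroblast arrays were the closest pair among the 8 genes in that group. Adult minus neonatal was 0.61 ± 0.40 (95% interval -0.40 to 1.62, limma adjusted p = 0.401).

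For Txlnb, Smyd1 and Klhl41 the difference between the neonatal cell types was known when the list was drawn up, so it is given without a test. It was 5.66 ± 0.55 for Txlnb, 4.75 ± 0.54 for Smyd1 and 5.10 ± 0.40 for Klhl41. These 3 were the members counted past the threshold between neonatal cardiomyocytes and fibroblasts, where 0.819% of all genes were called, 0.676% higher and 0.143% lower, and nothing is read from that count. Over the 8 genes the differences ran from 4.36 to 5.66 with a median of 4.83, against a median of -0.02 over all genes. In all 8 both cardiomyocyte arrays lay above both fibroblast arrays, as for 22.3% of all genes.

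Between adult and neonatal cardiomyocytes limma called 0 of the 8 genes, and 2.3% of all genes were called, 1.08% higher and 1.22% lower. The gap between the fibroblast arrays enters the spread used here, so 0 calls do not show that the ages are alike. A fit of only the adult and neonatal cardiomyocyte arrays also called 0 of the 8. At an unadjusted p under 0.05 stood 1 of the 8 genes and 22.8% of all genes. All 8 means were higher in adult cells on the probe sets used, with a median difference of 0.47 against 0.09 over all genes. In 6 of the 8 both adult arrays lay above both neonatal cardiomyocyte arrays, as they did for 33.9% of all genes.

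Adult cardiomyocytes exceeded neonatal fibroblasts in all 8 genes past the threshold, where 21% of all genes were called, 10.1% higher and 11% lower. The arrays did not overlap in any of the 8, and 37.8% of all genes lay above in this way. The differences ran from 4.60 for Mybpc3 (limma adjusted p = 0.0141) and 4.61 for Myom1 (limma adjusted p = 0.0379) to 7.22 for Txlnb. Lmod2 rose by 6.36 ± 0.84 and Myom2 by 6.17 ± 0.89, with limma adjusted p of 0.0119 and 0.0140. This comparison joins age, sex, isolation and cell type, and it shares the fibroblast arrays with the neonatal one. Those arrays entered the known differences of Txlnb, Smyd1 and Klhl41, so for these genes the comparison is only a description. Nothing is read from their part in the count. The count of 8 became 0 without adult replicate 1, where 0 of all genes were called, and 2 without adult replicate 2, where 350 of all genes were. With the neonatal replicate 1 arrays grouped by title it was also 0.

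**Figure D3:**
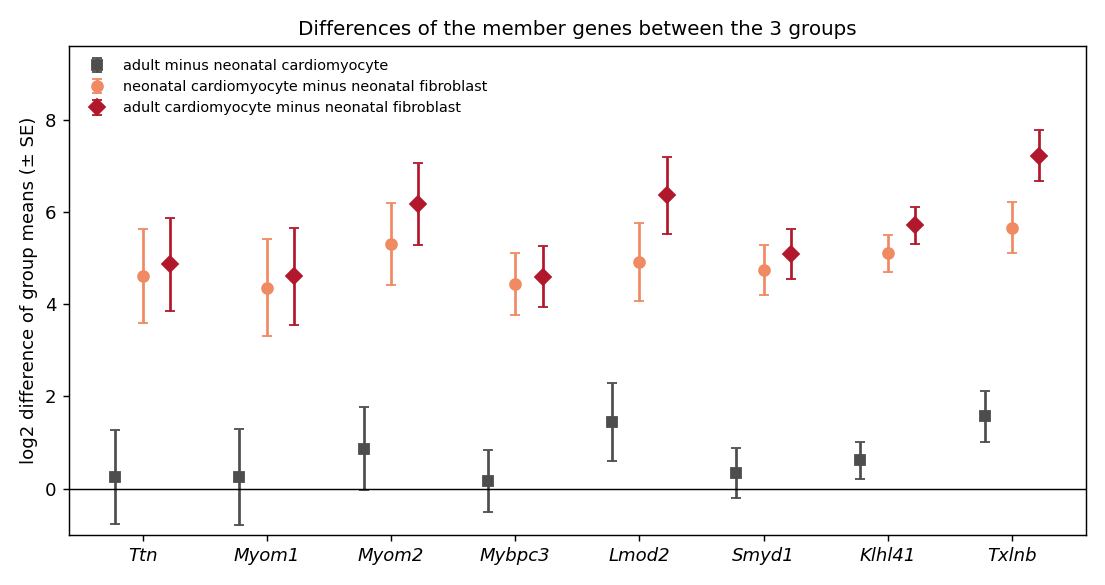
Log2 difference of group means (vertical axis, ± SE from limma, n = 2 arrays a group) for the 8 genes in each of 3 comparisons, positive where the first-named group is higher. Adult-minus-neonatal differences in cardiomyocytes lie between 0.16 and 1.56, and both differences from fibroblasts between 4.36 and 7.22.

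The fibroblast arrays lay further apart than either cardiomyocyte pair for 7 of the 8 genes, Klhl41 being the exception. The fibroblast signal was also taken as a share of the neonatal cardiomyocyte mean on the linear scale. On replicate 2 the highest shares were 15.4% for Myom1, 12.2% for Ttn and 9.31% for Mybpc3. Lower ones there were 7.98% for Lmod2, 6.63% for Smyd1, 6.54% for Myom2 and 3.44% for Txlnb. On replicate 1 the share was 1.54% for Myom1, 1.39% for Ttn, 2.28% for Mybpc3, 1.39% for Lmod2, 2.09% for Smyd1 and 0.981% for Myom2. Both fibroblast values of Klhl41 and the replicate 1 value of Txlnb lay below the first quartile of those arrays (4.19 and 4.22), are not shown to be above background, and give no share. Replicate 1 minus replicate 2 had a median of -2.28 over the 8 genes, -2.60 over the 8 cardiomyocyte markers and 3.18 over the 9 leukocyte markers, and the part of other cells in these values was not tested. Without fibroblast replicate 2, the difference between the neonatal cell types was 6.17 for Ttn, 6.02 for Myom1 and 5.45 for Mybpc3. That fit leaves a lone fibroblast array, whose spread cannot be estimated, so no test is given for it. Leaving out fibroblast replicate 1, neonatal cardiomyocyte replicate 1 or either adult array lost every call between the neonatal cell types. With the neonatal replicate 1 arrays grouped by title, all 8 differences were below 0, from -1.94 for Ttn to -0.73 for Txlnb. That grouping puts the array with a cardiomyocyte marker median of 13.65 among the fibroblasts. The array with a median of 6.17 then counts as cardiomyocytes.

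The 8 genes had 22 probe sets in all, and Myom1, Mybpc3, Lmod2 and Klhl41 had 1 each. For Ttn all 6 probe sets were higher in neonatal cardiomyocytes than in fibroblasts, by 1.76 to 5.54, and 5 of 6 had higher means in adult than in neonatal cardiomyocytes. The exception, with the lowest mean of the 6, differed by -0.25, and the others by 0.05 to 1.39. Titin transcripts are spliced into shorter and longer forms in the heart; none of the sources used here gives the exons each probe set reads. The Ttn probe set with the widest adult-minus-neonatal difference measured 12.26 and 11.72 in adult cardiomyocytes, 11.99 and 9.20 in neonatal cardiomyocytes, and 4.15 and 6.13 in fibroblasts, with neonatal replicate 2 well below the other cardiomyocyte arrays.

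The Myom2 probe set used is of a type that may bind related transcripts. A second one without that mark gave 1.04 for adult minus neonatal and 5.35 between the neonatal cell types, against 0.87 and 5.30. The fourth Myom2 probe set lay between 3.11 and 3.79 on all arrays. Of 6 Smyd1 probe sets, 3 differed by 0.24 or less between the neonatal cell types, and the others by 2.60 to 5.89. On 5 of the 6 the adult mean was above the neonatal one, but on the second brightest the difference was -0.20, against 0.33 on the one used. The Txlnb probe sets were nearly tied for the choice, with means of 8.84 for the one used and 8.65 for the other. They differed by 5.66 and 2.90 between the neonatal cell types, and by 1.56 and 1.98 between adult and neonatal cardiomyocytes.

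**Figure D4:**
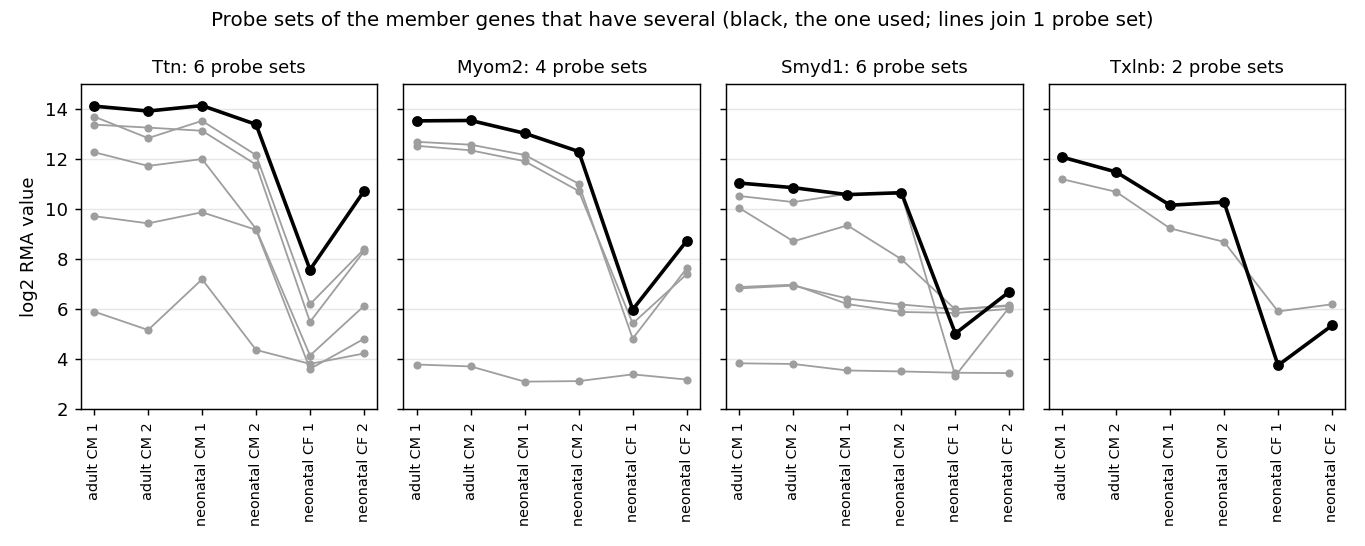
Log2 RMA value (vertical axis) of every probe set of Ttn, Myom2, Smyd1 and Txlnb on the 6 arrays (CM, cardiomyocytes; CF, cardiac fibroblasts; numbers are replicates); black lines mark the probe set used. In Ttn 5 of 6 lines have higher adult than neonatal cardiomyocyte means, and in Smyd1 3 lines stay nearly level between the neonatal groups.

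Across the 6 arrays the members' profiles correlated with each other at Pearson r between 0.934 (Myom1 and Klhl41) and 0.998 (Ttn and Myom1). The points are 3 pairs of arrays set far apart by the contrast between cardiomyocytes and fibroblasts. All 2538 other genes with an SD of at least 1 were compared in the same way. Closest to Ttn were Srl, Casq2 and Nebl (r = 0.998 to 0.999), which encode sarcalumenin, cardiac calsequestrin and nebulette. Closest to Myom1 were Srl, Myl3 and Myh6, and to Mybpc3 Hopx, Csrp3 and Actn2. Closest to Myom2 were Ryr2, the calcium release channel, Dsp, desmoplakin, and Myoz2 of the Z-disc, all with r rounding to 1.000. Lmod2 and Txlnb shared Lmod3, another leiomodin (r = 0.996 and 0.998). Lmod2 was also close to Clip4 and A530047J11Rik, and Txlnb to Chchd10 and Ndrg2. Smyd1 was closest to Fahd1, Ddo and Pgam2, and Klhl41 to Mdh1, Kcnn2 and Asb2.

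Of 71 other genes listed as partners, paralogs, chaperones and regulators, 66 were measured. The list was drawn up with earlier results of these data known, so the shares called are only a description. Between adult and neonatal cardiomyocytes 2 rose and 0 fell by limma, that is 3.03% called against 2.3% of all genes. At an unadjusted p under 0.05 stood 12 of the 66 and 22.8% of all genes, and the median was 0.03. Tmod4, a tropomodulin that caps thin filaments, measured 8.69 and 9.14 in adult cardiomyocytes, 4.72 and 4.08 in neonatal cardiomyocytes, and 3.93 and 4.22 in fibroblasts. It stood near its fibroblast level in neonatal cardiomyocytes and rose by 4.52 ± 0.30 in adult ones (limma adjusted p = 0.0166). Neonatal cardiomyocyte replicate 2 and fibroblast replicate 1 lay below the first quartile of their arrays (4.19 on each). These values are not shown to be above background, so the size of the rise is uncertain. Ankrd23, an ankyrin repeat protein that binds titin, rose by 2.66 ± 0.40 (limma adjusted p = 0.0467), a call lost with the replicate number added to the model. The Ankrd23 call was lost without any 1 of the 6 arrays (limma adjusted p = 0.0863 to 0.220). That of Tmod4 was lost without either adult array or neonatal cardiomyocyte replicate 2 (limma adjusted p = 0.0551 to 0.180).

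Between the neonatal cell types 7 of the 66 rose and 0 fell, that is 10.6% called against 0.819% of all genes, with a median of 1.43. As the list was drawn up with these data known, nothing is read from that share. The 18 titin and M-band partners gave 2 of these, the 10 thick filament genes 0 (6 at unadjusted p under 0.05 in limma, all 10 means higher), the 14 thin filament genes 4, the 14 chaperones, methyltransferases and kelch adaptors 1, and the 10 regulators 0 (8 at unadjusted p under 0.05). Of all genes 16.3% had an unadjusted p under 0.05. Tmod1, the tropomodulin of heart muscle, rose by 4.75 ± 0.36 and Unc45b, the muscle myosin chaperone that works beside Smyd1 in zebrafish, by 4.34 ± 0.47 (limma adjusted p = 0.0424 for each). With the replicate number added to the model, no gene passed in this comparison. Lmod3 rose by 4.75, Cmya5, myospryn, by 4.73 and Xirp1 by 4.52. Leaving out 1 array leaves a lone array in its group, whose spread cannot be estimated. The count rose without fibroblast replicate 2 and without neonatal cardiomyocyte replicate 2, as it did over all genes. It was 0, as over all genes, without any 1 of the other 4 arrays.

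Unc45b was nearly level with age, at 11.48 and 11.42 in adult cardiomyocytes and 11.69 and 11.20 in neonatal cardiomyocytes, against 6.44 and 7.77 in fibroblasts. Klhl40, the kelch paralog of Klhl41, measured 7.91 and 8.26 in adult cardiomyocytes, 7.01 and 6.10 in neonatal cardiomyocytes, and 4.84 and 4.57 in fibroblasts (adult minus neonatal 1.53 ± 0.35, limma adjusted p = 0.0937). Myom3, the remaining myomesin, lay between 3.71 and 4.97 on all arrays. Of the other taxilins, Txlna differed by -0.84 and Txlng by 0.05 between adult and neonatal cardiomyocytes (limma adjusted p = 0.224 and 0.915).

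The 10 regulators all had higher means in neonatal cardiomyocytes than in fibroblasts (median 1.24, all genes -0.02). In adult cardiomyocytes 9 of 10 had lower means than in neonatal ones (median -0.50, all genes 0.09). limma called 0 in either comparison. Between adult and neonatal cardiomyocytes 0 of the 10 had an unadjusted p under 0.05. The list was drawn up with these data known, and the share of all genes with each sign was not counted. Mef2c, a MEF2 factor of heart development, measured 10.11 and 10.39 in adult cardiomyocytes, 10.52 and 10.14 in neonatal cardiomyocytes, and 9.17 and 8.82 in fibroblasts. Rbm20, the splicing factor of titin, measured 10.27 and 10.46 in adult cardiomyocytes, 10.44 and 10.70 in neonatal cardiomyocytes, and 5.45 and 7.26 in fibroblasts. Its adult-minus-neonatal difference was -0.21 ± 0.59 (limma adjusted p = 0.853).

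Between adult cardiomyocytes and neonatal fibroblasts 31 of the 66 rose and 2 fell, that is 50% called against 21% of all genes, 10.1% higher and 11% lower. Nothing is read from that share either, since the list was drawn up with these data known. The 33 calls became 0 without adult replicate 1 and 6 without adult replicate 2, where 0 and 350 of all genes were called. Cmya5 rose by 6.95, Ckm, the muscle creatine kinase found at the M-band, by 6.63, and Tcap, the titin cap protein of the Z-disc, by 6.39. Lmod3 and Trim54, a titin-binding ring finger protein, rose by 5.92 and 5.82. The broadly expressed Tmod3 and Hsp90aa1 fell by 1.45 and 0.96 (limma adjusted p = 0.0335 and 0.0208).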

How the data were processed

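Expression was measured on 6 arrays in 3 groups of 2. The deposited table holds log2 values for 45101 probe sets, made by the authors with RMA per the submitters' processing notes, which corrects background, normalizes by quantiles and summarises probes; the sources used here give neither its version nor whether the arrays were processed in 1 run. RMA gives no detection call, differences of dim or near-saturated probe sets can be compressed, and the number of arrays limits the precision.

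By GEO's platform annotation 34945 probe sets have 1 gene, 932 several and 9160 none here; 64 are controls. Checked against RefSeq, 0 symbols needed an update. The probe set with the highest mean stood for each of 18193 genes. limma 3.58.1 (R 4.3.3; lmFit, eBayes) fitted 3 group means to all 6 arrays, with 3 residual and 2.18 prior degrees of freedom; tests were two-sided, and the procedure was tested on simulated data. Intervals are at the 95% level.

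The members and lists were chosen with earlier results of these data known. Named genes are all members, the up to 5 listed genes of each direction with the largest difference past the threshold in each comparison, and, per member, the 3 genes most alike. Other genes are named where a paralog, chaperone or regulator of a member helps to read it, chosen after its values were seen. Listed genes with no probe set of their own are not analysed here. Alternatives are the grouping by title, arrays left out, a replicate block, pairwise fits, quantile normalization, other probe set rules, a filter on dim genes and a variance trend.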

Additional observations from a re-analysis of the deposited data

How the results depend on the processing

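Direction was kept by the 8 members under every alternative run between adult cardiomyocytes and fibroblasts. It was lost between adult and neonatal cardiomyocytes only without neonatal cardiomyocyte replicate 2 (leave-one-out range -0.12 to 0.63 for Ttn and -0.10 to 0.42 for Mybpc3), and between the neonatal cell types only with groups by title. There the differences were -1.94 for Ttn, -1.84 for Myom1, -1.73 for Myom2, -1.27 for Mybpc3, -0.91 for Lmod2, -0.79 for Smyd1, -0.80 for Klhl41 and -0.73 for Txlnb, and -0.60 for Tmod1, -0.79 for Lmod3, -0.75 for Cmya5, -0.91 for Xirp1 and -0.90 for Unc45b. With groups by title, limma called 0 members in each comparison, and 114 genes in all between adult and neonatal cardiomyocytes (418 in the main analysis), 0 between the neonatal cell types (149; 232 at unadjusted p under 0.05) and 137 between adult cardiomyocytes and fibroblasts (3829); Myom2 minus Myom1 changed by 1.04 and not 0.62. Without both neonatal replicate 1 arrays the gene counts were 0, 0 and 717 in that order (3845 and 1461 at unadjusted p under 0.05 for the first 2), with 0 members called between the neonatal cell types, against 3.

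Leaving out 1 array gave 0 to 164 genes between adult and neonatal cardiomyocytes, 0 to 437 between the neonatal cell types with 0 to 8 members, and 0 to 3823 between adult cardiomyocytes and fibroblasts with 0 to 8 members. A lone array was assumed to vary like the other groups. Fits of only the groups compared gave 164 genes between adult and neonatal cardiomyocytes, and 0 genes and 0 members between the neonatal cell types (2532 at unadjusted p under 0.05).

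The replicate numbers share no stated source; same-numbered arrays deviated together at r = 0.183 to 0.268 over genes. Under the replicate block, 0 genes and 0 members passed in limma between the neonatal cell types (3678 and 8 at unadjusted p under 0.05), and Ankrd23 had an adjusted p of 0.0557 between adult and neonatal cardiomyocytes. Between the neonatal cell types, testing all probe sets gave 0 genes and 0 members (4949 and 8 at unadjusted p under 0.05), means of a gene's probe sets 59 genes, the filter on dim genes 384 genes and 6 members, and the variance trend 248 genes. The causes of these shifts were not tested. All member counts against fibroblasts include Txlnb, Smyd1 and Klhl41, whose difference between the neonatal cell types was known beforehand. Nothing is read from their part in those counts.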
